A study of Mus musculus with 9 samples.

Results

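Stmn2, Gap43, Gal and Cnih2, genes known from neurons, were followed by RNA sequencing in cultures of satellite cells, the stem cells of muscle, from mice. They are 4 of the 11148 rows of the deposited table, taken by gene name. They had been chosen on measured values, with their differences between passages and between media in these libraries already known. Their levels by passage are therefore given as a description, without a test.

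Newborn mice of both sexes (1 to 3 days old, strain C57/BL6/DBA) were pooled, and cells from their limb muscle were grown on dishes coated with collagen. The 9 libraries covered 3 media and 4 passages (P0, P1, P2 and P15), with 1 library per combination. F10 medium was used at P0, without stated serum or FGF. T cell medium consisted in equal parts (50% each) of F10 medium with 15% FBS and of T cell medium, with 2.5 ng/ml FGF, and was used at all 4 passages. In cytokine medium, likewise used throughout, F10 medium with 15% FBS held 4 cytokines and FGF. IL-1α and IL-13 were each at 5 ng/ml, IFN-γ and TNF-α each at 10 ng/ml, and FGF was again at 2.5 ng/ml. Since serum and FGF are not stated for F10 medium, differences from it cannot be assigned to one component. The labels do not say which passages continue one culture, and every value rests on 1 library.

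Growing axons carry Stmn2 and Gap43 at the growth cone. Stmn2 (stathmin-2, SCG10) binds tubulin and regulates microtubule dynamics, and Gap43 binds calmodulin and membrane lipids and is a marker of nerve regeneration, also expressed by Schwann cells. Gal encodes the precursor of galanin, a secreted neuropeptide that acts on G protein-coupled receptors and is induced in sensory neurons after nerve injury. Cnih2 encodes a cornichon protein, a cargo adaptor of the secretory pathway that also associates with AMPA-type glutamate receptors as an auxiliary subunit.

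Both growth cone proteins are held at membranes by palmitoylated cysteines near their amino terminus, and the first 75 coding bases of each are shown for that reason, 5′ to 3′ from GENCODE vM21, with cysteine codons in capitals. Each stretch holds 2 such codons.
Stmn2: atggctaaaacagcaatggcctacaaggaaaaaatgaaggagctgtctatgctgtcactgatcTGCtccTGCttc
Gap43: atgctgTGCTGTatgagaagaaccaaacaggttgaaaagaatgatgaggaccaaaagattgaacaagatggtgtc

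Gal and Cnih2 both lie on chromosome 19 and had different patterns over passages. The 250 bases before the start of each are shown from RefSeq (GRCm38.p6, minus strand, 5′ to 3′), as chr19:3414545-3414794 for Gal and chr19:5098522-5098771 for Cnih2. Capitals mark GC boxes (GGGCGG on either strand), of which Gal had 1 and Cnih2 3, and 32.7% of 32851 promoters of this length had at least 1. The NF-kappaB motif was found at 1 place in Gal and at 2 places in Cnih2, where it overlaps GC boxes, and was present in 45.8% of promoters. Neither stretch held AP-1 (TGANTCA, in 6.75% of promoters), CRE (TGACGTCA, 1.55%), GAS (TTCNNNGAA, 7.02%) or E-box letters (CANNTG, 66.2%, or its form CAGCTG, 13%), searched on both strands.
Gal: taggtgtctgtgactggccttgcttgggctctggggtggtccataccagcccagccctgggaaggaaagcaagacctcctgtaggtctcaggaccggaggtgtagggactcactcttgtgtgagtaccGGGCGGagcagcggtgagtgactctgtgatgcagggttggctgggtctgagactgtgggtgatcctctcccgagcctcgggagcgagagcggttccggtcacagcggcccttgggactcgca
Cnih2: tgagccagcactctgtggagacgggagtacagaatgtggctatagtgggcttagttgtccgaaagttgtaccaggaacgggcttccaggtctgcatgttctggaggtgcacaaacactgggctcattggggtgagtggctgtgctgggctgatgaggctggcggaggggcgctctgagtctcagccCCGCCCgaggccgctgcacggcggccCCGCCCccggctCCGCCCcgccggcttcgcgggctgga

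Levels are in RPKM, read numbers divided by gene model length and library depth, as deposited. Each sample had 2 columns, whose differences were smaller than counting noise (chi-square per row 0.428 to 0.459, where independent counts give 1), and their mean was counted as 1 sample. Steps between low values gave back whole reads, and the first column had an estimated depth of 12.95 to 18.2 M reads. The 95% intervals printed with folds are exact binomial (Clopper-Pearson) intervals on the mean reads of both columns. They cover counting error only, since no culture was repeated.

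Most row names in the table do not go with their values, so each gene's own name was checked against the rows around it. An offset between the rows and the annotated exons (GENCODE vM21, mm10) was fitted to the values along each chromosome, and 764 rows (6.85%) lay in stretches with an offset of at most 500 bp. For Gal (chromosome 19, 3409915 to 3414544) and Cnih2 (chromosome 19, 5092868 to 5098521), offsets from -60 to 60 bp were within 5 log-likelihood units of the best. For Stmn2 (chromosome 3, 8509360 to 8561606) this range was -300 to 300 bp. For Gap43 (chromosome 16, 42248442 to 42340651) the fit on the 40 bp grid gave -280 bp and a finer profile was best at -300 bp, with nearly the same support at 300 bp. An offset of 0 was 13.1 units worse than that best, and offsets within 5 units of it reached from -440 to 400 bp, at the first of which 23.7% of its exon bases are its own. Under the stricter rule used in earlier work on these data, which allows an offset of 0 to be at most 5 units worse, the name of Gap43 would not be used. It was admitted by a rule set after the values were seen, and all results under that name carry this doubt. The stricter rule keeps Stmn2, Gal and Cnih2 and 609 of the 764 rows.

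An offset of 280 bp in either direction leaves 44.7% of the exon bases of Gap43 under its own row. Its RPKM can therefore understate its level and are not compared with those of the other genes here. The deposited gene model lengths recovered from the read steps were 1904 bp for Stmn2, 1523 bp for Gap43, 712 bp for Gal and 1237 bp for Cnih2. The annotated exons used to check the names had 5602, 1523, 788 and 1369 bp in the same order. For Stmn2 the check thus used much longer exons than the model counted, in a stretch of only 28 rows. The last exon of Cnih2 shares 14 bp with Yif1a on the opposite strand, and with the strand setting not given, reads there cannot be assigned to one of them.

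**Figure D1:**
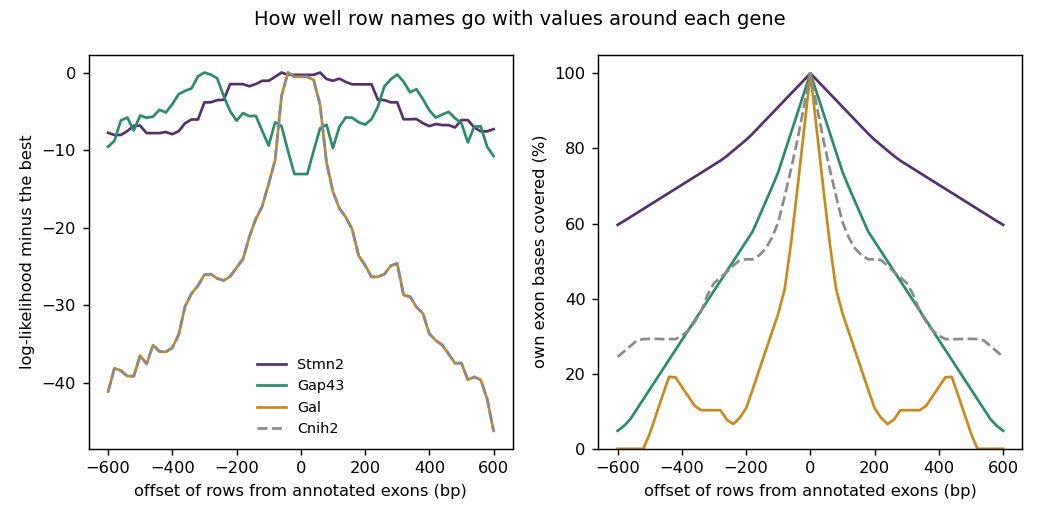
Left, log-likelihood (relative to the best) of the values of the rows around each gene for offsets from -600 to 600 bp between rows and annotated exons. Right, percentage of a gene's own exon bases still covered at that offset. Gal and Cnih2 share a stretch of rows, so their lines coincide on the left, and stay within 5 units from -60 to 60 bp, Stmn2 has a broad top around 0, and Gap43 has a dip of 13.1 units at 0 with tops near 300 bp on both sides.

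Stmn2 had the largest ratio of highest to lowest level among the 4 genes, 48.9, from 0.777 to 38.0 RPKM (19 to 900.5 reads). In F10 medium at P0 it was at 2.36 RPKM. The libraries from T cell medium had 0.777 RPKM (P0), 8.01 (P1), 14.9 (P2) and 16.8 (P15). In cytokine medium the level was 0.799 RPKM at P0 and 0.963 at P1, then 22.3 at P2 and 38.0 at P15. The lowest 3 libraries were P0 in T cell and in cytokine medium and P1 in cytokine medium, where the fold between neighbours in level had an interval including 1, and the highest was P15 in cytokine medium.

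From P0 to P15, Stmn2 was 21.6-fold higher in T cell medium (95% interval 13.7 to 36.2) and 47.6-fold higher in cytokine medium (31.4 to 76.7). The largest step came between P0 and P1 in T cell medium (10.3-fold, 6.45 to 17.4), and P2 was 1.86-fold above P1 there (1.59 to 2.19). In cytokine medium the largest step came between P1 and P2 (23.1-fold, 16.2 to 34.1), after a P1 level 1.20-fold that of P0 (0.681 to 2.18). In T cell medium the P15 level was 1.13-fold that of P2 (0.990 to 1.29), an interval that includes no difference. In cytokine medium P15 was 1.71-fold above P2 (1.54 to 1.89).

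Gap43 ranged from 0.585 to 9.07 RPKM (14 to 209 reads). It was at 2.44 RPKM in F10 medium at P0. T cell medium gave 2.46 RPKM (P0), 1.55 (P1), 0.585 (P2) and 4.57 (P15). In cytokine medium they were 2.96, 4.83, 9.07 and 6.62 RPKM in the same order. The P0 libraries of all 3 media could not be separated by their counting intervals, and the extremes were both P2 libraries.

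Relative to P0 in the same medium, Gap43 at P2 was 0.238-fold in T cell medium (0.121 to 0.438) and 3.07-fold in cytokine medium (2.31 to 4.11). At P15 it was above P0 in both media, by 1.86-fold in T cell medium (1.31 to 2.68) and 2.24-fold in cytokine medium (1.65 to 3.06). Between P2 and P15 the direction was again opposite, with 7.82-fold in T cell medium (4.47 to 14.8) and 0.730-fold in cytokine medium (0.581 to 0.916).

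Gal, the galanin precursor gene, was at 20.8 RPKM in F10 medium at P0. With T cell medium its level was 14.6 RPKM (P0), 28.6 (P1), 3.39 (P2) and 17.9 (P15). With cytokine medium it was 13.1 RPKM (P0), 28.4 (P1), 43.8 (P2) and 22.3 (P15). Of the 9 libraries, P2 in T cell medium was the lowest, 3.86-fold under the next (2.68 to 5.70), and P2 in cytokine medium the highest, 1.53-fold above the next (1.32 to 1.77). Between them, P0 in cytokine medium, P0 and P15 in T cell medium, F10 medium and P15 in cytokine medium followed in order of level. Within this group each had an interval including 1 against the one before, although its ends were 1.71-fold apart (1.36 to 2.13). The libraries at P1 followed, with 1.01-fold between them (0.864 to 1.18).

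From P0 to P1 Gal was about equally higher in both media, 1.97-fold in T cell medium (1.60 to 2.43) and 2.17-fold in cytokine medium (1.77 to 2.66). At P2 it was 0.233-fold of P0 in T cell medium (0.158 to 0.336) and 3.36-fold in cytokine medium (2.76 to 4.08). At P15 it was 1.23-fold of P0 in T cell medium (0.981 to 1.55), which includes no difference, and 1.71-fold in cytokine medium (1.36 to 2.13).

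Cnih2 had the smallest ratio of highest to lowest level, 5.87, from 1.64 to 9.63 RPKM (26 to 180.5 reads). In F10 medium at P0 it was at 2.10 RPKM. T cell medium gave 1.64 RPKM (P0), 3.797 (P1), 7.44 (P2) and 9.63 (P15), and cytokine medium 1.67, 2.84, 3.42 and 6.16 RPKM in the same order. Each passage was above the one before it in both media, although the step from P1 to P2 in cytokine medium, 1.20-fold, had an interval of 0.834 to 1.74.

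At P15, Cnih2 was 5.87-fold above P0 in T cell medium (3.89 to 9.25) and 3.70-fold in cytokine medium (2.43 to 5.78). In order of level, the lowest 6 libraries (the 3 at P0, both at P1 and P2 in cytokine medium) each had an interval including 1 against the next within this group, although its ends were 2.31-fold apart (1.46 to 3.78). P15 in cytokine medium stood 1.62-fold above the highest of these, P1 in T cell medium (1.19 to 2.24), and P15 in T cell medium was the highest, 1.29-fold above P2 in that medium (1.03 to 1.62).

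**Figure D2:**
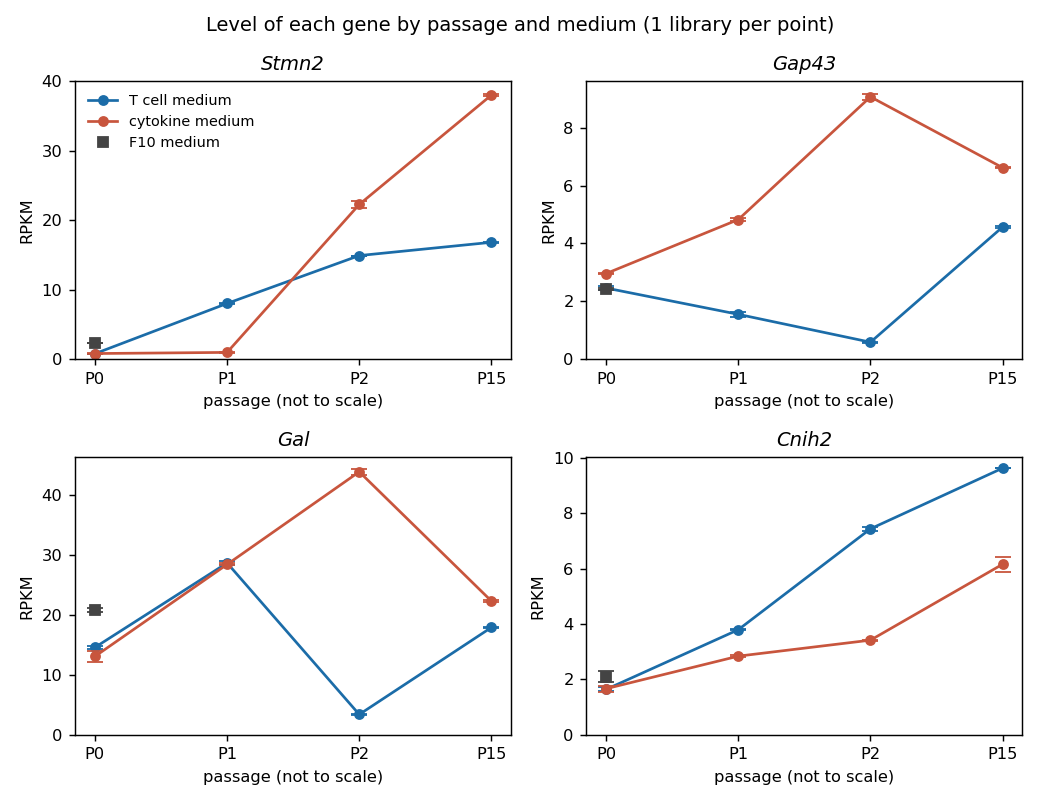
RPKM (y axis, from 0) of the 4 genes at P0, P1, P2 and P15 (x axis, evenly spaced). Points are the mean of the 2 columns of 1 library, dashes the columns, blue T cell medium, red cytokine medium and the black square F10 medium; Stmn2 and Cnih2 are highest at P15 in both media, while Gap43 and Gal part at P2, at 0.585 against 9.07 and at 3.39 against 43.8 RPKM.

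At least 2-fold higher levels at P15 than at P0, on the log2(RPKM + 1) scale, were found for Stmn2 and Cnih2 in both media, with log2 differences of 3.33 and 2.01 in T cell medium and 4.44 and 1.43 in cytokine medium. Gap43 (0.69 and 0.94) and Gal (0.28 and 0.73) were below that limit. None of the 4 was at least 2-fold lower. The median of the 4 was 1.35 in T cell medium and 1.19 in cytokine medium. Over the 519 rows with usable names and a mean of at least 1 RPKM the medians were 0.04 and -0.05, and 2.89% of rows in T cell medium and 1.73% in cytokine medium were at least 2-fold higher. At a pseudocount of 0.1 Gap43 also passed in cytokine medium (1.14), which made 3 genes there, and these shares were 3.85% and 2.89%. None of the 4 was at least 2-fold lower at that pseudocount either, where only 3.28% of the rows in T cell and 1.93% in cytokine medium were. These differences had a part in the choice of the genes, so the counts are not evidence of their own.

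The media were compared at each passage and, with the 4 passages as repeats, across all of them. At P0 the intervals of all 4 folds of cytokine over T cell medium included 1, with folds of 1.03 for Stmn2, 1.20 for Gap43, 0.897 for Gal and 1.02 for Cnih2. At P1 Stmn2 was 0.120-fold in cytokine relative to T cell medium (0.0802 to 0.174), while Gap43 was 3.12-fold higher (2.14 to 4.62). At P2 Gap43 was 15.5-fold higher in cytokine medium (9.05 to 28.9), Gal 12.9-fold (9.29 to 18.5) and Stmn2 1.49-fold (1.32 to 1.69). Cnih2 was at 0.459-fold there (0.337 to 0.621). At P15 Stmn2 was 2.26-fold higher in cytokine medium (2.02 to 2.53), Gap43 1.45-fold (1.11 to 1.89) and Gal 1.25-fold (1.02 to 1.53), with Cnih2 at 0.640-fold (0.495 to 0.826).

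On the log2(RPKM + 1) scale, 0 of the 4 genes were at least 2-fold apart at P0, 2 at P1 (Gap43 and Stmn2, in opposite directions), 2 at P2 (Gap43 and Gal) and 1 at P15 (Stmn2). At a pseudocount of 0.1 Cnih2 was also lower in cytokine medium at P2 (-1.10), which made 3 genes there, where 10.6% of the 519 rows were at least 2-fold apart. Of the 519 rows, 3.85% were that far apart at P0, 5.78% at P1 and 8.09% at P2, and 1.54% at P15.

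**Figure D3:**
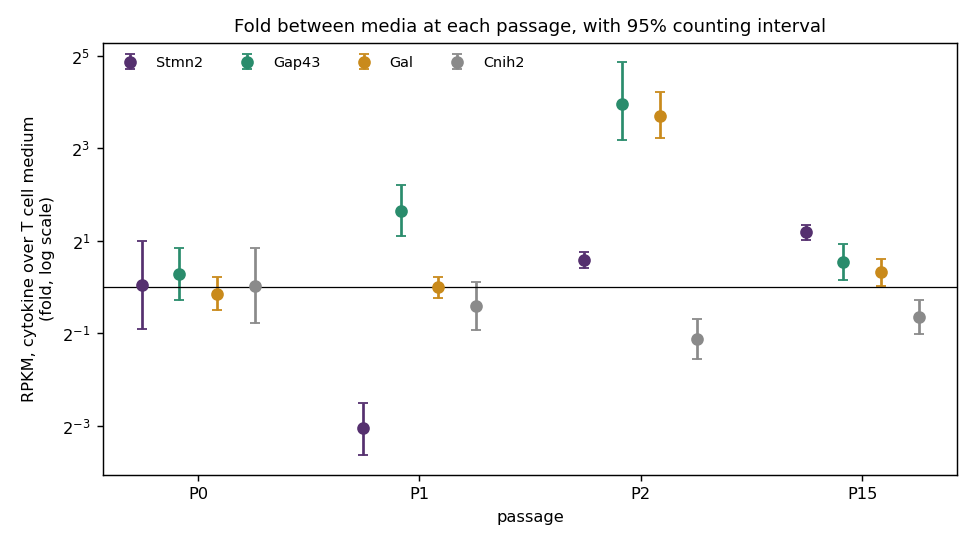
Fold of RPKM in cytokine over T cell medium (y axis, log scale) at P0, P1, P2 and P15 (x axis) for each gene, 1 library per medium and passage, bars the 95% counting interval. All intervals at P0 include 1, Stmn2 lies at 0.120 at P1 and at 2.26 at P15, and Gap43 and Gal are above 12 at P2.

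Across the 4 passages, the RPKM of Gap43 averaged 5.87 ± 2.61 with cytokine medium and 2.29 ± 1.70 with T cell medium (SD, n = 4 passages), and it was higher in cytokine medium at 4 of 4 passages. The mean log2 difference was 1.13 with a 95% interval of 0.24 to 2.02 (limma adjusted p = 0.095). Cnih2 was at 3.52 ± 1.91 and 5.63 ± 3.59 RPKM, higher in cytokine medium at 1 of 4 passages, with a mean log2 difference of -0.45 and an interval of -0.80 to -0.10 (limma adjusted p = 0.0884). Neither passed the threshold of 0.05 after adjustment over the 3183 rows tested.

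Gal was at 26.9 ± 12.9 RPKM in cytokine and 16.1 ± 10.4 in T cell medium (SD, n = 4 passages), a mean log2 difference of 0.87 from -0.45 to 2.20 (limma adjusted p = 0.329). It was higher in cytokine medium at 2 of 4 passages, and without P2 the mean difference was 0.05. Stmn2 was at 15.5 ± 18.1 and 10.1 ± 7.29 RPKM, a mean log2 difference of -0.13 from -1.29 to 1.04 (limma adjusted p = 0.885). It was higher in cytokine medium at 3 of 4 passages, and without P1 its mean difference was 0.57 in favour of cytokine medium. In limma 0 of the 4 genes passed, and 2 (Gap43 and Cnih2) were below 0.05 before adjustment. Of all 3183 rows tested, 526 were below 0.05 before adjustment and higher in cytokine medium, and 444 were lower. The 2 genes are therefore not set apart by this count. After adjustment, 5.44% of all rows tested were called higher and 5.72% lower in cytokine medium. The same libraries gave the earlier results from which the genes came, so this test is not independent of their choice.

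At P0 the T cell and cytokine libraries were each compared with the one F10 library. Stmn2 was 0.330-fold in T cell medium (0.187 to 0.558) and 0.339-fold in cytokine medium (0.198 to 0.556). Gal was 0.700-fold (0.558 to 0.872) and 0.628-fold (0.503 to 0.784). Gap43 was 1.01-fold (0.668 to 1.52) and 1.22-fold (0.833 to 1.78), and Cnih2 0.780-fold (0.451 to 1.32) and 0.792-fold (0.472 to 1.31). On the log2(RPKM + 1) scale 0 of the 4 were at least 2-fold apart in either medium, where 4.43% of the 519 rows in T cell and 7.13% in cytokine medium were. At a pseudocount of 0.1 Stmn2 passed that limit in both, as the lower in each, against 5.78% and 8.48% of the rows. Both comparisons use the same F10 library.

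Profiles of the 4 genes were compared in pairs over the 9 libraries. Stmn2 and Cnih2 had a Pearson r of 0.81 on the log2(RPKM + 1) scale and a Spearman rho of 0.80, and r was 0.81 without P2 in T cell medium and 0.68 without the 2 libraries farthest from the median of Stmn2. Gap43 and Gal had an r of 0.75 and a rho of 0.52. That relation rests on the P2 libraries: r was 0.49 without P2 in T cell medium and 0.07 without the 2 libraries farthest from the median of Gap43. The other 4 pairs had r from -0.26 to 0.27. Without P2 in T cell medium these were higher, 0.59 for Stmn2 and Gap43, 0.49 for Stmn2 and Gal, 0.42 for Gap43 and Cnih2 and 0.22 for Gal and Cnih2, so that Gap43 and Gal no longer stood apart from them. All pairs share their libraries and passages, so these are descriptions only.

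**Figure D4:**
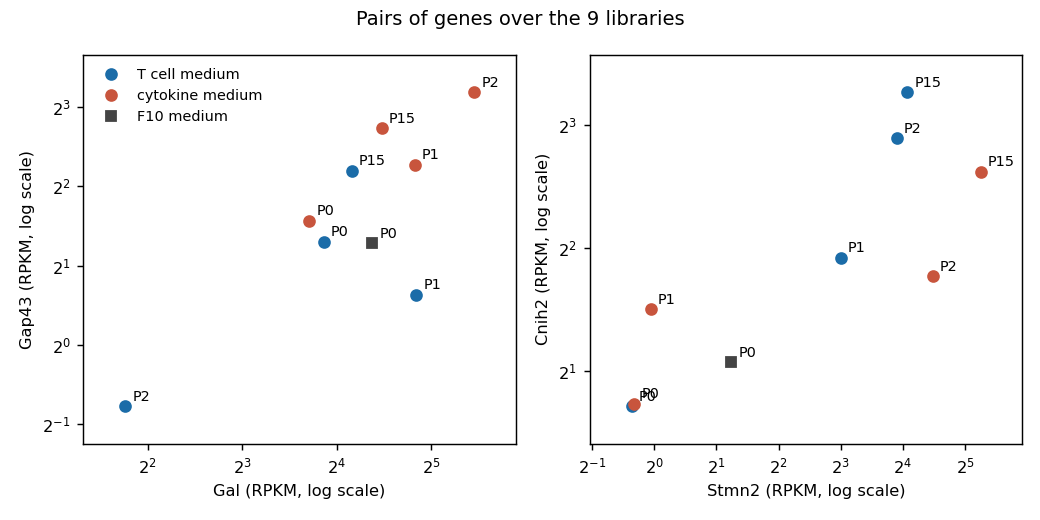
Gap43 against Gal (left) and Cnih2 against Stmn2 (right), RPKM on log scales, 1 point per library with its passage, coloured by medium. Gap43 and Gal have both their lowest and highest values at P2, in T cell and cytokine medium, and Stmn2 and Cnih2 are low at P0 and high at P15.

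The library of P2 in T cell medium, where Gap43 and Gal were lowest, also had the highest level of Actn3 and Srl, the muscle markers of the list that had usable names. Actn3, the α-actinin of fast muscle fibres, was at 116 RPKM there, the highest of 9 libraries, followed by 86.9 at P0 in T cell medium, with a median of 14.7 and a lowest value of 4.79. Srl, which encodes sarcalumenin of the sarcoplasmic reticulum, was at 63.3 RPKM there and at 4.90 to 50.4 elsewhere. That library was the lowest of 9 for 22.4% of the 519 rows and the highest for 18.9%, while no other exceeded 14.5% and 12.9%. Whether the muscle genes or this library have a part in the values of Gap43 and Gal at P2 was not tested. In bulk RNA a change in the share of a cell type cannot be told apart from a change of RNA per cell.

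The labelled cell type could not be checked with markers of satellite cells themselves, such as Pax7, which had no usable names. Of 13 genes listed as markers of satellite cells and myoblasts, only Actn3 and Srl had usable names. Both are genes of muscle fibres, so they do not show whether the cells were satellite cells. They were detected in all libraries. In T cell medium both were lower at P15 than at P0, while Stmn2 and Cnih2 were higher at P15. Actn3 was at 86.9 RPKM at P0 and 10.5 at P15, and Srl at 50.4 and 5.85. Between these passages Actn3 and Srl were below P0 at P1 (50.8 and 33.4 RPKM) and above it at P2 (116 and 63.3). Stmn2 and Cnih2 were above P0 at both. In cytokine medium Actn3 was at 14.7 and 8.44 RPKM and Srl at 9.22 and 5.03. Across passages both were lower in cytokine medium (limma adjusted p = 0.0357 for Actn3 and 0.0364 for Srl), where 5.72% of all rows tested were called lower. Without P0, P1 or P2, only 2, 3 and 5 of all rows were called lower. The part of these markers in the values of the 4 genes was not tested. Of 9 neuron markers only Stmn2 and of 10 Schwann cell and nerve glia markers only Gap43 had one. Whether nerve cells or glia were present could therefore not be tested from markers independent of the 4 genes.

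Other genes of the same functions were taken from lists, and only rows with usable names were read. In the list of axon growth, cytoskeleton and nerve injury genes, 4 of 28 had a usable name and a mean of at least 1 RPKM. Beside Stmn2 and Gap43 these were Klc2, a kinesin light chain, at 6.98 to 9.69 RPKM, and Gsk3b, a kinase, at 12.4 to 15.1 RPKM. From P0 to P15 the log2 difference of Klc2 was -0.20 in T cell and -0.07 in cytokine medium, and that of Gsk3b -0.04 and 0.04. Rtn4r, the Nogo receptor gene, did not exceed 0.329 RPKM.

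Of 22 neuropeptide and receptor genes only Gal reached a mean of 1 RPKM with a usable name, and Sst, the somatostatin gene, stayed at 0.345 RPKM or less. Of 20 AMPA receptor genes and partners only Cnih2 did, and Gria4, an AMPA receptor subunit, stayed at 0.0276 RPKM or less. Of 24 synapse and channel genes 8 were measured at that level, 0 of them at least 2-fold apart between P0 and P15 in either medium, with medians of -0.03 and 0.01. They included App, the amyloid precursor gene, at 16.6 to 30.03 RPKM, and Syt12, a synaptotagmin, at 1.39 to 2.60 RPKM.

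Of 22 neural adhesion and guidance genes 5 were measured, and 0 were at least 2-fold apart between P0 and P15 on the log2(RPKM + 1) scale. That scale understates changes of low genes. Sema3d in cytokine medium was at 0.265 RPKM at P0 and 1.42 at P15, a log2 difference of 0.94 on it. Between the media, 2 of these 5 were lower in cytokine medium across passages, where 5.72% of all rows tested were called lower. They were Sema3d, a secreted semaphorin (-2.17, limma adjusted p = 0.0331), and Epha3, an ephrin receptor (-0.66, limma adjusted p = 0.0155). Sema3d was highest at P2 in T cell medium, at 26.0 RPKM, the library in which Gap43 and Gal were lowest. Alcam, a cell adhesion gene, had its lowest value in that library, 11.2 RPKM, and its highest at P2 in cytokine medium, 30.7 RPKM, as Gap43 and Gal did, and did not pass the test (limma adjusted p = 0.188). The names of Epha3, Alcam, App and Gsk3b, like that of Gap43, depend on the wider rule for names. In the other 4 lists of this kind 0 genes were called.

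For each of the 4 genes, the 3 rows with the most similar profile over 9 libraries were named among 105 others with usable names, a mean of at least 1 RPKM and a range of at least 1 on the log2(RPKM + 1) scale. Pdgfd, a platelet-derived growth factor gene, was nearest to Cnih2 (r = 0.96) and to Stmn2 (r = 0.89). It was at 0.448 to 0.747 RPKM in the 3 libraries at P0, 7.10 at P2 in T cell medium and 5.82 at P15 in cytokine medium. Stmn2 was followed by A330021E22Rik (r = 0.83) and Cnih2, and Cnih2 by Stmn2 and by Cpt1a, which encodes carnitine palmitoyltransferase of fatty acid oxidation (r = 0.80).

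Gap43 was nearest to Mmp10, encoding the protease stromelysin-2 (r = 0.91), Fosl1, a subunit of AP-1 (r = 0.90), and Crem, a transcription factor of cAMP signalling (r = 0.87). Mmp10 was at 0.185 RPKM at P2 in T cell medium and 52.0 at P2 in cytokine medium, its lowest and highest values, as for Gap43. Gal was nearest to Fabp5, a fatty acid binding protein gene (r = 0.83), and to Prodh, which encodes proline dehydrogenase (r = 0.80). Fabp5 (10.3 RPKM) and Prodh (1.38 RPKM) had their lowest value at P2 in T cell medium too. A row that joins Rpl35a with several pseudogene names followed (r = 0.79), and its reads cannot be assigned to one gene.

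**Figure D5:**
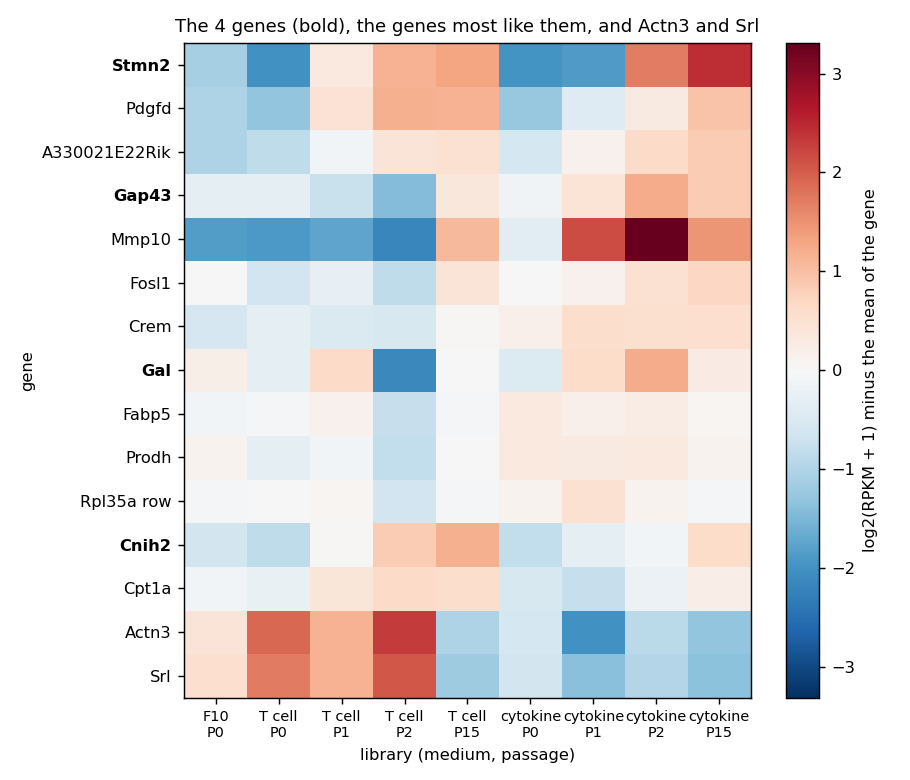
log2(RPKM + 1) minus the mean of each gene (colour, red higher) for the 4 genes in bold, the genes with the most similar profile, and the muscle genes Actn3 and Srl (rows), in the 9 libraries (columns). P2 in T cell medium is the darkest blue column for Gap43, Mmp10 and Gal and the darkest red for Actn3, and Stmn2 is darkest red at P15 in cytokine medium.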

How the data were processed

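RNA of 9 libraries of mouse satellite cells was measured. The authors deposited RPKM values for 11148 rows with Ensembl identifiers and names, per the file headers, with 2 columns per sample. TopHat2 2.0.1, HTSeq 0.5.4p2 and mm10 are named per the submitters' processing notes; annotation, strand setting and scaling were not given in the sources used here.

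The mean of a sample's columns was used. Whole reads (within 0.02 of a read) were recovered for 87.2% of rows with a value above 0. Offsets between rows and GENCODE vM21 exons were fitted per chromosome by maximum likelihood (40 bp grid up to 8 Mb, each change costing 9 log-likelihood units). Of 129 segments, 9 had an offset of at most 500 bp. Their rows, less 3 at each inner end, gave the 764 usable names. Of these 67.9% had a mean of at least 1 RPKM, against 25.9% of the others. The offsets were fitted to these same levels, so the difference in shares is no support for the names. The limit of 500 bp was set after the values were seen. A stricter rule from earlier work (first segment of a chromosome, offset 0 at most 5 units worse than the best) would leave 609 names and drop Gap43; it was run as an added alternative.

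Each medium and passage had 1 library, so limma p-values set the mean difference between media against its variation from passage to passage. That variation is estimated partly from all rows. The passages are treated as independent repeats, although the labels do not say which of them continue one culture. The F10 library was left out of this test. Cytokine and T cell medium were compared with limma 3.58.1 in R 4.3.3 on log2(RPKM + 1) with passage as a block and trend, over 3183 rows with a mean of at least 1 RPKM, adjusted by Benjamini-Hochberg. RPKM are divided by depth, so no count test was used, and the scale understates changes of low genes. Both methods were run on simulated data, which held no small offset like that of Gap43 and no differences between passages. Named genes were the 4 genes, the 3 most correlated rows of each, the nearest rows on the chromosome and measured members of the lists. The genes, lists and rules were chosen with earlier results of these data known. Alternatives were another pseudocount, other filters, scaling, single columns, no passage term, no trend and leaving out a passage.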

Additional observations from a re-analysis of the deposited data

Results flagged for a closer look

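In 3 cases the change from P0 had opposite directions in the 2 media, with counting intervals that left out 1 in both. For Gap43 at P1 the log2 change in cytokine medium exceeded that in T cell medium by 1.00, and at P2 by 2.47. For Gal at P2 the excess was 3.50. With 1 library per medium and passage these differences between media were not tested.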

How the results depend on the processing

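Depth limits the lowest values, such as the 14 reads of Gap43 at P2 in T cell medium, and intervals do not cover differences between cultures. In limma, none of the 4 genes passed under any of the 13 alternatives run, of which a filter of 5 RPKM leaves out Gap43 and Cnih2. Adjusted p ran from 0.195 to 0.963 for Stmn2, 0.0742 to 0.287 for Gap43, 0.302 to 0.822 for Gal and 0.0686 to 0.596 for Cnih2. When each passage was left out in turn, the mean log2 difference ran from -0.54 to 0.57 for Stmn2, whose sign turned without P1, from 0.61 to 1.44 for Gap43, 0.05 to 1.21 for Gal and -0.61 to -0.29 for Cnih2. The number of rows called higher was 173 (182 lower), 7 and 0 without a filter on low values (limma, 834 and 898 before adjustment), and 32 and 23 without a passage term. The number called lower was 91 with a filter of 5 RPKM, where fewer rows were tested. It was 8 to 230 higher and 2 to 272 lower when a passage was left out. Of 120 alternative values of the 24 single differences (P15 against P0, and between media at each passage), 116 had the same sign, 1 was exactly 0 (Gal between media at P1, quantile normalization) and 3 changed sign. In these 4 cases the counting interval included no difference. At a pseudocount of 0.1, which understates changes of low genes less than 1 does, 4 values lay outside the counting interval expressed on the log2(RPKM + 1) scale: Stmn2 from P0 to P15 (4.27 in T cell and 5.41 in cytokine medium) and between media at P1 (-2.93), and Gap43 between media at P2 (3.74). Under the stricter rule for names, added after seeing the data, Gap43 is dropped, and the shares of the remaining 416 rows at least 2-fold apart ran from 1.92% to 8.41%, against 1.54% to 8.09%.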

Other observations

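The nearest rows with usable names on either side of the 4 genes were also read. Il7, the interleukin-7 gene before Stmn2, ranged from 0.299 to 1.49 RPKM with an r of 0.79 to Stmn2, and Hey1, a Notch target gene after it, from 0.534 to 7.81 RPKM with an r of -0.18 to Stmn2 over 9 libraries. Lsamp, an adhesion gene before Gap43, did not exceed 0.00651 RPKM, and Zbtb20, a transcription factor gene after it, ranged from 0.365 to 1.76 RPKM with an r of -0.90 to Gap43. The names of Lsamp and Zbtb20, like that of Gap43, depend on the wider rule for names. Ppp6r3, a phosphatase subunit gene beside Gal, was at 26.6 to 38.3 RPKM with an r of -0.30. Yif1a and Rab1b, trafficking genes on either side of Cnih2, were at 15.0 to 23.0 and 76.4 to 108 RPKM, with r of 0.36 and -0.24 to Cnih2.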
